A study of Mus musculus with 16 samples.

Results

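The dual specificity MAP kinase phosphatases described here are Dusp1, Dusp3, Dusp4, Dusp5, Dusp6, Dusp7, Dusp8, Dusp14 and Dusp16, measured in the hippocampus of mice 1 h after the onset of seizures provoked by kainic acid, with and without blockade of MEK. Every probe set annotated with 1 of these gene symbols was taken, without a filter on intensity, which gave 11 probe sets of 9 genes among 15417 probe sets with a gene name, which together name 13180 genes where a probe set names 1 gene only. Dusp3 and Dusp5 have 2 probe sets each and are given with the identifier of the probe set. RNA of 1 hippocampus was hybridized to 1 Affymetrix exon array, and values are log2 intensities, so that a difference of 1 is a doubling. A level on this scale can be compared between arrays for 1 probe set but not between probe sets.

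All 16 animals were 3 months old male wildtype C57BL/6 mice. Untreated animals (n = 4) had no injection. The other groups had 3 animals each and were injected intraperitoneally with vehicle, with kainic acid at 20 mg/kg, with SL327 at 50 mg/kg, or with SL327 followed 1 h later by kainic acid at the same doses. Kainic acid is an agonist of glutamate receptors that triggers seizures, and SL327 is an inhibitor of MEK, the kinase that activates ERK, that enters the brain. The labels give PBS for the vehicle animals, whereas the treatment protocol names a mixture of DMSO and PBS both as the solvent of SL327 and as the injection without agents. If vehicle animals had PBS only, SL327 and DMSO cannot be told apart wherever animals given SL327 are set against vehicle. RNA came from the whole dissected hippocampus, so its regions and cell types are pooled in each value. The labels give 1 h for SL327 alone, whereas the animals with both agents had SL327 at least 1 h before seizure onset and so for longer than 1 h in all, and a legend names a longer time after SL327 alone for tissue sections. The time since SL327 may therefore differ between these groups, which bears on every comparison that uses SL327 alone.

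MAP kinases are active when both a threonine and a tyrosine in their activation loop carry phosphate, and dual specificity phosphatases remove both. The nuclear enzymes Dusp1, Dusp4 and Dusp5 are products of inducible genes, and Dusp1 acts on JNK, p38 and ERK while Dusp5 is selective for ERK. Dusp6 and Dusp7 are cytoplasmic and selective for ERK, and Dusp6 is a well-known feedback inhibitor whose transcription follows ERK activity. Dusp8 and Dusp16 act mainly on JNK and p38, and Dusp3 and Dusp14 are small members without the MAP kinase binding domain of the others. In neurons, Dusp1, Dusp5 and Dusp6 are known as genes that are transcribed after synaptic activity.

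Promoter sequences of RefSeq (GRCm38.p6) were available for 8 of the 9 genes, all but Dusp4, and the 250 bases before the 1 start of transcription listed for each gene were searched on both strands. This start is at the edge of the gene's span for Dusp1, Dusp5 and Dusp6, whereas the window lies inside the span for Dusp3, Dusp8, Dusp14 and Dusp16 and overlaps its beginning for Dusp7, so that these genes may have other starts. The motifs were the cyclic AMP response element bound by CREB (CRE, TGACGTCA), its core TGACG, the AP-1 site (TGACTCA and TGAGTCA), the EGR site (GCGGGGGCG and GCGTGGGCG), the ETS site (CCGGAAGT) and the CArG box of serum response factor. The core is part of every CRE. The sequences of Dusp1, Dusp5 and Dusp8 are shown because they hold a full CRE or a CArG box, and that of Dusp6 because it is the ERK feedback gene among the members and held none of the motifs. Each is written in the direction of the gene, with the matches in capitals.
Dusp1: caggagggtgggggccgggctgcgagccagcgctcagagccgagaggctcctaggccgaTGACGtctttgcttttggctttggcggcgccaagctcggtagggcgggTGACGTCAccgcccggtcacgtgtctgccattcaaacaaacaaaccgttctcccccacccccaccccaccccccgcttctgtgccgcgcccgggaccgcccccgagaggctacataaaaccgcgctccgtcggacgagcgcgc
Dusp5: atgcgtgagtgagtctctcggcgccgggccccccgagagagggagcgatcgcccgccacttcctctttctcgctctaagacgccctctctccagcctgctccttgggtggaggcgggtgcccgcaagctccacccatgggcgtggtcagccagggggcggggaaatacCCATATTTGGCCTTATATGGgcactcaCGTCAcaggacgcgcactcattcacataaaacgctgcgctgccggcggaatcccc
Dusp8: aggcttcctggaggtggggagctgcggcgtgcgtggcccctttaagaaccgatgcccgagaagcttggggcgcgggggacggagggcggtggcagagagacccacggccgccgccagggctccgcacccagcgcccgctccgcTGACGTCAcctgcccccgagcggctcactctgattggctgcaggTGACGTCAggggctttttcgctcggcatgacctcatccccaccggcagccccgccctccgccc
Dusp6: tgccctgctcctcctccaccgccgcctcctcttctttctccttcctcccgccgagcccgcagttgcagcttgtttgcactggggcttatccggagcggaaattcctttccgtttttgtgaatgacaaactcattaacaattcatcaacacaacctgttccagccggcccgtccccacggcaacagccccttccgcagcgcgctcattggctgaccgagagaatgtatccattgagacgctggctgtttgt
The Dusp1 sequence lies at chr17:26508473-26508722 on the minus strand and held 1 CRE, 143 to 136 bases before the start, and a separate core at 191 to 187 bases. That of Dusp5, at chr19:53528895-53529144 on the plus strand, held 2 CArG boxes side by side, CCATATTTGG at 82 to 73 and CCTTATATGG at 72 to 63 bases, and a core at 55 to 51 bases. That of Dusp8, at chr7:142095285-142095534 on the minus strand, held 2 CREs, at 107 to 100 and at 63 to 56 bases. The Dusp6 sequence is at chr10:99262981-99263230 on the plus strand. Dusp16 held 1 core, 70 to 66 bases before its start, and Dusp3, Dusp7 and Dusp14 held no match. Of 32851 mouse promoters of the same length, 1.55% held a CRE, 17.8% the core, 4.46% an AP-1 site, 3.06% an EGR site, 2.88% an ETS site and 1.47% a CArG box. These matches describe letters in a window and do not show that a factor binds there.

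The arrays were alike in level, with medians from 7.43 to 7.53, and the mean correlation of an array with those of its own group was between 0.958 and 0.975. The markers of hippocampal neurons were present, and 5 of 6 were above the array median on every array. Vehicle and untreated animals did not differ at an adjusted p under 0.05 in any of the 15417 probe sets in limma (smallest adjusted p = 0.719), and 843, or 5.47%, did at an unadjusted p under 0.05. No member was among the latter, and Dusp1 was -0.24 in vehicle against untreated animals, with a 95% interval from -0.82 to 0.35. P-values below come from limma with Benjamini-Hochberg adjustment over all 15417 probe sets, and a call means an adjusted p under 0.05.

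Which members respond to seizures was asked by comparing kainic acid with vehicle. Dusp1, Dusp4, Dusp5, Dusp6, Dusp14 and Dusp16 rose 1 h after seizure onset, from 1.55-fold for Dusp4 to 7.18-fold for Dusp1, whereas Dusp3, Dusp7 and Dusp8 were not called. Thus 6 of 11 probe sets were called higher and 0 lower, where 4.92% of all probe sets were called higher and 8.41% lower. The median difference was 0.64 over the 11 probe sets and -0.03 over all.

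Dusp1, the phosphatase with the broadest choice of MAP kinases among the inducible members (chromosome 17), had values of 8.49, 8.85 and 8.76 in vehicle animals and of 10.86, 11.88 and 11.88 after kainic acid. The lowest array after kainic acid was 2 log2 units above the highest vehicle array. The difference was 2.84 (SE 0.29, adjusted p = 2.52e-05), with a 95% interval from 2.22 to 3.47. Untreated animals, at 8.63, 8.98, 8.79 and 9.33, were within the range of vehicle animals or above it.

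Among the phosphatases selective for ERK, Dusp5 (chromosome 19, probe set 6870461) had values of 8.56, 8.48 and 8.24 in vehicle animals and of 9.75, 10.51 and 10.50 after kainic acid. The groups were separated, and as for Dusp1 the first kainic acid animal was the lowest of the 3. The difference was 1.82 (SE 0.18, adjusted p = 1.85e-05), or 3.54-fold. The other Dusp5 probe set, 6873784, gave 7.29, 7.18 and 7.18 against 7.76, 8.56 and 7.67, a difference of 0.78 (95% interval 0.22 to 1.35, adjusted p = 0.0674) that was not called although the groups did not overlap. Its values also varied more between animals given SL327, from 6.71 to 7.54, than did those of 6870461, from 8.16 to 8.22. Which parts of the transcript the probe sets cover was not analysed here.

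Dusp6, the cytoplasmic feedback phosphatase of ERK (chromosome 10), had values of 7.63, 7.42 and 7.33 in vehicle animals and of 8.16, 8.56 and 8.42 after kainic acid. All 3 animals with seizures were above all vehicle and untreated animals. The difference was 0.92 (SE 0.13, adjusted p = 0.000337), or 1.89-fold. Dusp7, the close relative of Dusp6 (chromosome 9), showed no such rise. Its values were 10.55, 10.62 and 10.59 in vehicle animals and 10.49, 10.59 and 10.46 after kainic acid, a difference of -0.07 with a 95% interval from -0.18 to 0.04 (adjusted p = 0.414). The interval of Dusp7 lies below that of Dusp6, which ran from 0.65 to 1.19.

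Dusp4, a nuclear phosphatase of ERK and JNK (chromosome 8), had values of 7.19, 7.14 and 7.17 in vehicle animals and of 7.81, 7.89 and 7.69 after kainic acid. It varied least within groups among the members that rose, with an SD of 0.02 in vehicle and 0.10 in kainic acid animals. The difference was 0.63 (SE 0.06, adjusted p = 8.71e-06). Dusp4 was above the array median only on the 3 kainic acid arrays. It therefore passed the intensity filter of the methods, as applied here to the deposited table, only through them.

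Dusp16, a phosphatase of JNK and p38 (chromosome 6), had values of 6.65, 6.84 and 6.75 in vehicle animals and of 7.47, 7.45 and 7.24 after kainic acid. The groups did not overlap, and the difference was 0.64 (SE 0.10, adjusted p = 0.00103). Dusp16 was above the array median on 2 of 16 arrays. It was the only 1 of the 11 probe sets removed by the filter of the methods as applied here to the deposited table. That table appears filtered already, so this does not show that the authors' filter removed Dusp16. Dusp14, a small phosphatase (chromosome 11), had values of 7.18, 7.18 and 7.28 in vehicle animals and of 7.59, 8.0 and 8.16 after kainic acid. Its difference was 0.70 (SE 0.11, adjusted p = 0.000814), and here too the first kainic acid animal was the lowest.

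**Figure D1:**
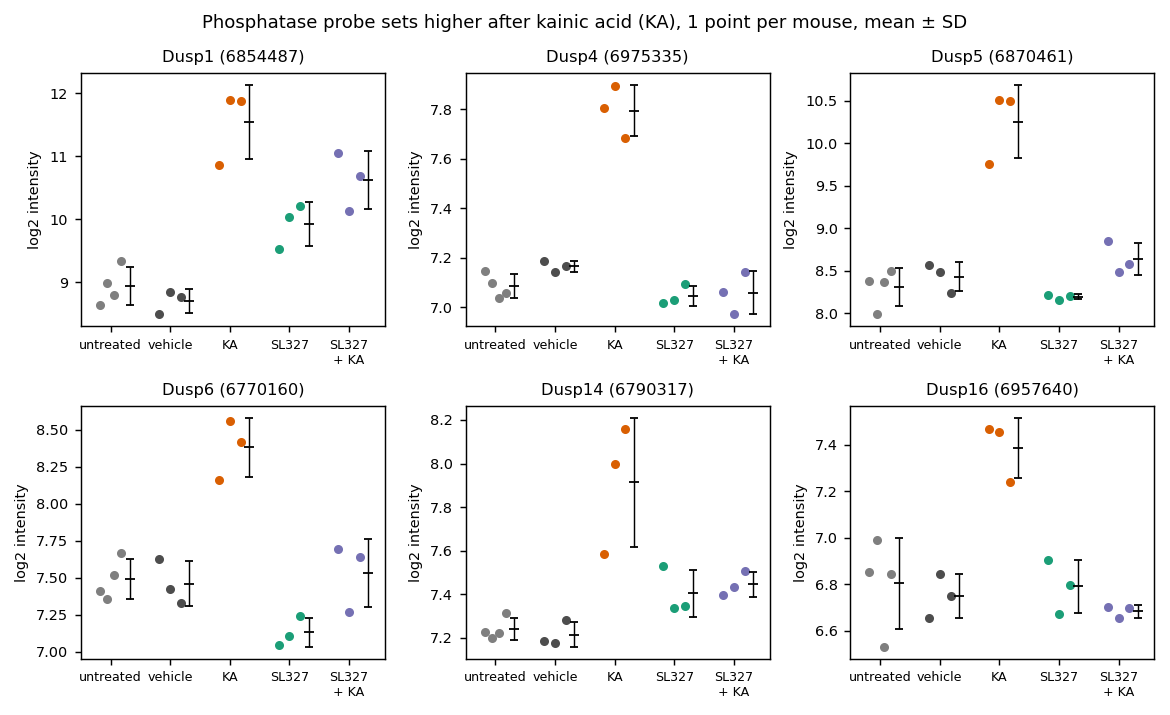
Log2 intensity of the 6 probe sets that were higher after kainic acid, 1 panel per gene, with 1 point per array, the group mean as a line and the SD as a bar, for the untreated (n = 4) and vehicle animals and those given kainic acid, both agents or SL327 alone (n = 3 each). Dusp4, Dusp5, Dusp6 and Dusp16 with SL327 and kainic acid lie near the controls, whereas all Dusp1 values with SL327, from 9.52 to 11.05, lie above those of the control animals. All Dusp14 values with SL327, from 7.34 to 7.53, also lie above those of the control animals.

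For the members that were not called, Dusp3, Dusp7 and Dusp8, the intervals lay between -0.30 and 0.26. Dusp8 (chromosome 7), a phosphatase of JNK and p38 like Dusp16, differed by 0.07 between kainic acid and vehicle (95% interval -0.03 to 0.17, adjusted p = 0.396). For Dusp3 (chromosome 11) the probe set 6791528 differed by 0.14 (0.01 to 0.26, adjusted p = 0.152) and 6791526 by -0.09 (-0.30 to 0.12, adjusted p = 0.626), so that its probe sets had opposite signs and neither was called. All 3 kainic acid arrays were above all 3 vehicle arrays in 9 of the 11 probe sets, all but Dusp3 6791526 and Dusp7, where 11.5% of all probe sets had this order. The rise of Dusp3 6791528 was called when the control was untreated animals (0.18, adjusted p = 0.03) or both control groups pooled (0.16, adjusted p = 0.0269).

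**Figure D2:**
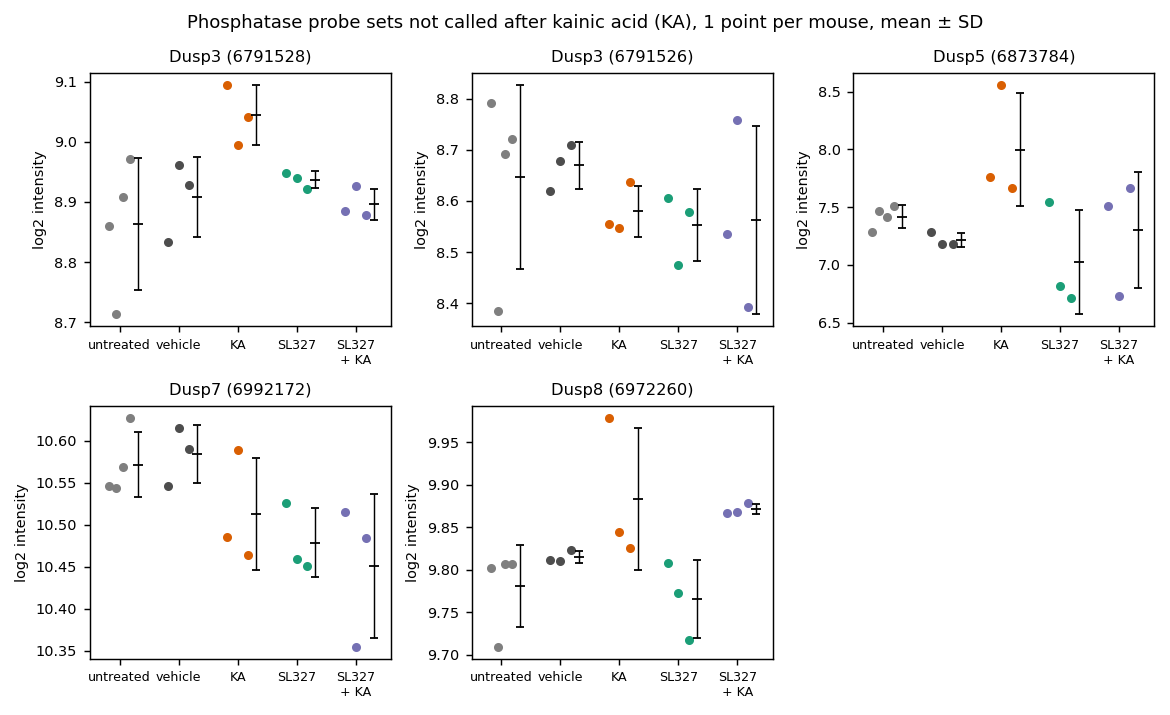
Log2 intensity of the 5 probe sets that were not called higher after kainic acid, 1 panel per probe set, with 1 point per array, the group mean as a line and the SD as a bar, for the same 5 groups. The scales differ between panels, and Dusp7 lies between 10.35 and 10.63 and Dusp8 between 9.71 and 9.98 on all 16 arrays.

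Markers of dentate granule cells moved with the response to kainic acid. Of 5 measured granule cell genes, Prox1 (-0.67, adjusted p = 0.0147), Dsp (-0.92, adjusted p = 0.00868) and Lct (-0.79, adjusted p = 0.00827) were lower after kainic acid, while C1ql2 (-0.16) and Calb1 (0.00) were not called. The median of the list relative to vehicle was between -0.84 and -0.58 on the kainic acid arrays and between -0.14 and 0.09 on the vehicle arrays. In whole hippocampus, fewer cells of a type and less RNA per cell cannot be told apart, and the part of these markers in the rise of the phosphatases was not tested. No marker was called in the lists of hippocampal neurons (6 genes), CA pyramidal cells (5), astrocytes (4), oligodendrocytes (4), microglia (5), endothelium (3), choroid plexus (7) and blood (1) in this comparison.

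Whether the inhibitor alone changes the members was asked by comparing SL327 with vehicle. Dusp1 was the only member called, and it was higher with SL327. Thus 1 probe set of 11 was called higher and 0 lower, against 2.57% higher and 0.402% lower over all probe sets. At an unadjusted p under 0.05 there were 2 members, Dusp1 higher and Dusp6 lower, where 17.8% of all probe sets passed in either direction. Values of Dusp1 were 9.52, 10.03 and 10.21 after SL327 and at most 8.85 in vehicle and 9.33 in untreated animals, so that the groups did not overlap. The difference was 1.22 (SE 0.29, 95% interval 0.60 to 1.85, adjusted p = 0.0383), or 2.34-fold. This call is close to the threshold. It was lost when any single vehicle or SL327 array was left out (adjusted p from 0.0547 to 0.152), with untreated animals as control (0.99, adjusted p = 0.0751) and with another scaling of the arrays (adjusted p = 0.0551 after centring on the median and 0.0541 after quantile normalization), while the value stayed between 0.99 and 1.42.

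The ERK phosphatases had lower means with SL327 than with vehicle, and none was called. Dusp6 had values of 7.04, 7.11 and 7.24 against 7.33 or more in vehicle animals. The difference was -0.33 with a 95% interval from -0.60 to -0.06 (adjusted p = 0.183). All SL327 arrays were also below all vehicle arrays for Dusp5 6870461 (-0.24, adjusted p = 0.537), Dusp4 (-0.12, adjusted p = 0.298), Dusp7 (-0.11, adjusted p = 0.303), Dusp8 (-0.05) and Dusp3 6791526 (-0.12), which makes 6 of 11 probe sets where 8.13% of all had this order. All SL327 arrays were above all vehicle arrays for Dusp1 and Dusp14, the latter by 0.19 (95% interval -0.04 to 0.42, adjusted p = 0.389), where 19.6% of all probe sets had that order. Dusp16 differed by 0.04 (95% interval -0.17 to 0.26, adjusted p = 0.875).

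Choroid plexus markers were above the range of vehicle arrays on 2 of the 3 SL327 arrays. The median of the 7 genes relative to vehicle was 0.22, 0.91 and 0.91 in SL327 animals 1 to 3, against -0.23 to 0.31 on vehicle arrays. None of the 7 genes was called with SL327, including Ttr (1.85, adjusted p = 0.323), the most abundant product of this tissue. Dusp1 on the same 3 arrays was 9.52, 10.03 and 10.21, so that the array with the lowest median also had the lowest Dusp1. In untreated animals 1 to 4 the median was 0.98, 1.34, 0.22 and -0.28 beside Dusp1 values of 8.63, 8.98, 8.79 and 9.33. The single blood gene measured differed by 0.49 between SL327 and vehicle and was not called. Granule cell medians were between -0.17 and -0.06 on SL327 arrays. The part of these markers in the rise of Dusp1 was not tested.

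How much of the seizure response was left under MEK inhibition was asked by comparing animals given SL327 and kainic acid with each other group. Against vehicle, Dusp1 was again the only member called. Values were 11.05, 10.12 and 10.69, all above the control animals, and the difference was 1.92 (SE 0.29, 95% interval 1.30 to 2.55, adjusted p = 0.0108), or 3.79-fold. Over all probe sets 0.383% were called higher and 0.0973% lower in this comparison, and 11.4% had an unadjusted p under 0.05, among them 3 members, namely Dusp1, Dusp14 and Dusp7. The call was lost in a fit of these 2 groups alone (adjusted p = 0.0693) and when vehicle animal 1 or 3 or animal 1 or 3 with both treatments was left out (adjusted p from 0.0546 to 0.068, difference from 1.71 to 1.96).

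The other members that kainic acid had raised were near vehicle when SL327 came first. Dusp5 6870461 had values of 8.84, 8.48 and 8.58, a difference from vehicle of 0.20 (95% interval -0.18 to 0.59, adjusted p = 0.759). Dusp6 had values of 7.69, 7.27 and 7.64, a difference of 0.07 (-0.20 to 0.34, adjusted p = 0.903). Dusp4 had values of 7.06, 6.97 and 7.14, a difference of -0.11 (-0.23 to 0.02, adjusted p = 0.537). For each of the 3 genes the upper end of the interval lies below the lower end of the interval for kainic acid alone against vehicle. The same holds for Dusp16 and, narrowly, for Dusp14 (upper end 0.46 against lower end 0.47). Dusp16, at 6.70, 6.65 and 6.70, differed from vehicle by -0.06 (-0.28 to 0.15, adjusted p = 0.895). Dusp14, at 7.40, 7.43 and 7.51, was above all 3 vehicle arrays, but the difference of 0.23 was not called (adjusted p = 0.44). All arrays of both treatments were above vehicle for Dusp1, Dusp8 and Dusp14, where 11.5% of all probe sets had this order, and below it for Dusp7 (-0.13, adjusted p = 0.324), where 8.28% had it.

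Dusp4, Dusp5 6870461, Dusp6, Dusp14 and Dusp16 were lower with SL327 and kainic acid than with kainic acid alone. These were 5 of 11 probe sets called lower and 0 higher, where 4.09% of all probe sets were called lower and 8.15% higher, and the median difference was -0.70 over the members and 0.04 over all. Dusp5 fell by 1.62 (SE 0.18, adjusted p = 8.44e-05), Dusp6 by 0.85 (SE 0.13, adjusted p = 0.000846) and Dusp4 by 0.74 (SE 0.06, adjusted p = 3.36e-06), each with no overlap between the groups. Dusp16 fell by 0.70 (SE 0.10, adjusted p = 0.000713) and Dusp14 by 0.47 (SE 0.11, adjusted p = 0.0126). The call of Dusp14 was lost without kainic acid animal 2 or 3 (adjusted p = 0.0604 and 0.0525) and in a fit of these 2 groups alone (adjusted p = 0.103). This comparison shares the kainic acid arrays with that of kainic acid against vehicle, so a high or low kainic acid array enters both. Of the 5 granule cell markers 3 were higher with both treatments than with kainic acid alone, and their median relative to vehicle was between -0.25 and 0.27 on the arrays of both treatments. The part of these markers in the lower phosphatase values was not tested.

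Dusp1 with SL327 and kainic acid was 0.92 lower than with kainic acid alone on the log2 scale, which just missed the threshold. The difference was -0.92 with a 95% interval from -1.54 to -0.30 (SE 0.29, adjusted p = 0.0536, unadjusted p = 0.00687). The groups overlapped, since the highest array with both treatments, 11.05, was above the lowest with kainic acid, 10.86. It was called after the intensity filter of the methods as applied here (adjusted p = 0.0373), without kainic acid animal 1 (-1.26, adjusted p = 0.00825) and without animal 1 of the group with both treatments (-1.13, adjusted p = 0.0405). At an unadjusted p under 0.05, the threshold the methods use for this comparison, 8 of 11 probe sets were lower, adding Dusp1, Dusp5 6873784 (-0.70) and Dusp3 6791528 (-0.15), where 7.61% of all probe sets were lower. Dusp7 differed by -0.06 (95% interval -0.17 to 0.05) and Dusp8 by -0.01 (-0.11 to 0.09). All arrays with both treatments were below all kainic acid arrays in 7 of 11 probe sets, namely both of Dusp5, Dusp4, Dusp6, Dusp14, Dusp16 and Dusp3 6791528, where 8.95% of all probe sets had this order.

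Against SL327 alone, the addition of kainic acid changed no member at the threshold. No probe set of the 15417 was called in this comparison with limma, and 1381, or 8.96%, had an unadjusted p under 0.05. Among the latter were 4 members, all higher with kainic acid. Dusp1 was higher by 0.70 (95% interval 0.08 to 1.32, adjusted p = 0.516), with overlapping arrays. Dusp5 6870461 was higher by 0.44 (0.05 to 0.83, adjusted p = 0.512), Dusp6 by 0.40 (0.13 to 0.67, adjusted p = 0.387) and Dusp8 by 0.11 (0.00 to 0.21, adjusted p = 0.541), each with all 3 arrays above those of SL327 alone, where 4.66% of all probe sets had this order.

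**Figure D3:**
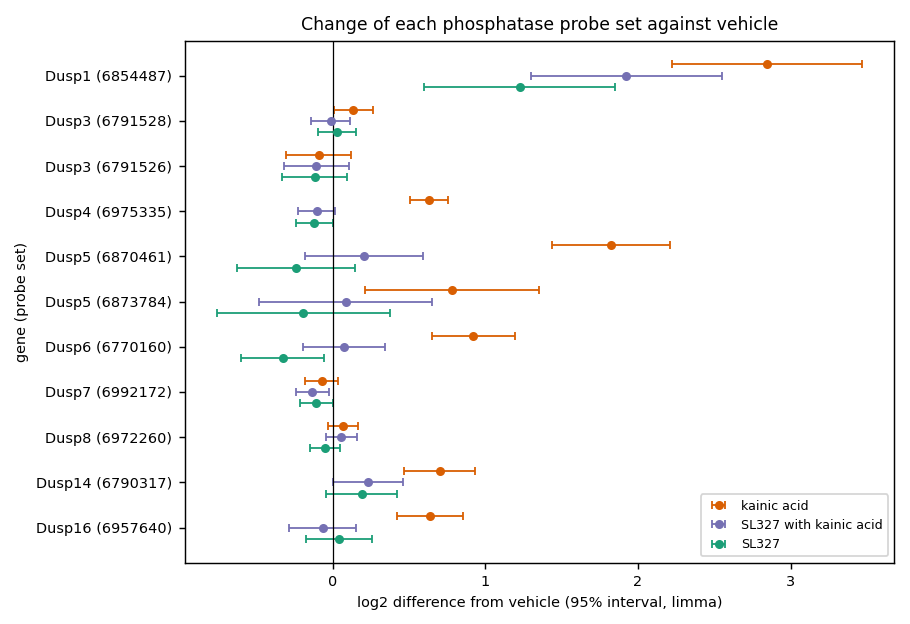
Differences in log2 intensity with 95% intervals for the 11 probe sets, for kainic acid, for both agents and for SL327 alone, each against vehicle (n = 3 per group). The intervals of Dusp4, Dusp5 6870461, Dusp6 and Dusp16 for kainic acid lie above those for both treatments, which include 0. Those of Dusp5 6873784 overlap, and the intervals of Dusp1 lie above 0 for all 3 treatments.

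The response to kainic acid was smaller in the presence of SL327 for 5 members. This was tested by the interaction, the difference between both treatments and SL327 alone minus the difference between kainic acid and vehicle. Over all probe sets 1.9% were called lower and 0.843% higher in this test, and of the 11 members 5 were called lower and 0 higher. The response of Dusp1 went from 2.84 without to 0.70 with the inhibitor (interaction -2.14, SE 0.41, adjusted p = 0.0125), the largest interaction among the members. That of Dusp5 6870461 went from 1.82 to 0.44 (interaction -1.38, SE 0.25, adjusted p = 0.00956), that of Dusp4 from 0.63 to 0.01 (-0.62, adjusted p = 0.00079), that of Dusp16 from 0.64 to -0.11 (-0.75, adjusted p = 0.0128) and that of Dusp14 from 0.70 to 0.04 (-0.66, adjusted p = 0.0348). The interaction of Dusp14 was called in only 10 of 23 alternative settings. For Dusp6 the interaction was -0.52 (95% interval -0.90 to -0.14, adjusted p = 0.143) and was not called. For Dusp1 the interaction rests on both the level with both treatments and the raised level with SL327 alone. For Dusp14, too, all arrays with SL327 alone were above all control arrays, though its difference from vehicle was not called.

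The order of the group means was not the same for Dusp1 and the ERK phosphatases Dusp5 and Dusp6, as a description of these animals. Means of Dusp1 fell from 11.54 ± 0.59 (SD, n = 3) with kainic acid over 10.62 ± 0.47 with both treatments and 9.92 ± 0.36 with SL327 to 8.93 ± 0.30 (n = 4) in untreated and 8.70 ± 0.19 in vehicle animals. Between neighbours in this order, only SL327 and untreated animals did not overlap. For Dusp5 6870461 the order was kainic acid, 10.25 ± 0.43, both treatments, 8.63 ± 0.19, vehicle, 8.43 ± 0.17, untreated, 8.31 ± 0.22, and SL327, 8.19 ± 0.03, and only the first step was free of overlap. For Dusp6 kainic acid, 8.38 ± 0.20, did not overlap both treatments, 7.53 ± 0.23, these overlapped untreated animals, 7.49 ± 0.14, which in turn overlapped vehicle, 7.46 ± 0.15, and SL327, 7.13 ± 0.10, lay below vehicle without overlap. Thus SL327 animals were in the middle of the order for Dusp1 and last for Dusp5 and Dusp6. Dusp14 had the same order of group means as Dusp1, so the middle place was not particular to Dusp1. Its SL327 animals, with a mean of 7.40, lay above untreated animals, 7.24, without overlap. They were also last for Dusp4, Dusp8 and Dusp3 6791526, so the last place was not particular to phosphatases selective for ERK. For Dusp7 the animals with both treatments were last.

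Dusp1 was then set against Dusp4, Dusp5, Dusp6 and Dusp7 within each array, as the log2 value of Dusp1 minus that of the other gene, relative to the vehicle mean. With kainic acid this difference was higher than with vehicle by 2.21 for Dusp4, 1.02 for Dusp5, 1.92 for Dusp6 and 2.92 for Dusp7, with no overlap of arrays. A two-sided exact permutation test of 3 against 3 animals cannot give a p below 0.1, which each of the 4 reached (adjusted p = 0.16 over 8 tests). Every kainic acid array thus had a higher difference than every vehicle array for all 4 genes, although the test at this size cannot call it. These differences are made from the values given above, so they are not separate evidence that Dusp1 rose. That to Dusp7, which did not rise, mostly repeats the rise of Dusp1.

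With SL327 and kainic acid against kainic acid alone, the difference of Dusp1 to Dusp5 had a higher mean. It was 0.84, 1.10 and 1.12 on kainic acid arrays and 1.94, 1.38 and 1.85 on arrays of both treatments, a change of 0.70 with no overlap (exact permutation p = 0.1, adjusted p = 0.16). With the other Dusp5 probe set, 6873784, the change was -0.22, so this result holds for 6870461 only. The difference of Dusp1 to Dusp6 changed by -0.07 (exact permutation p = 0.9) and that to Dusp4 by -0.19 (exact permutation p = 0.7), and for both the arrays of the groups overlapped. The difference to Dusp7, which kainic acid had not raised, changed by -0.86 (exact permutation p = 0.2).

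**Figure D4:**
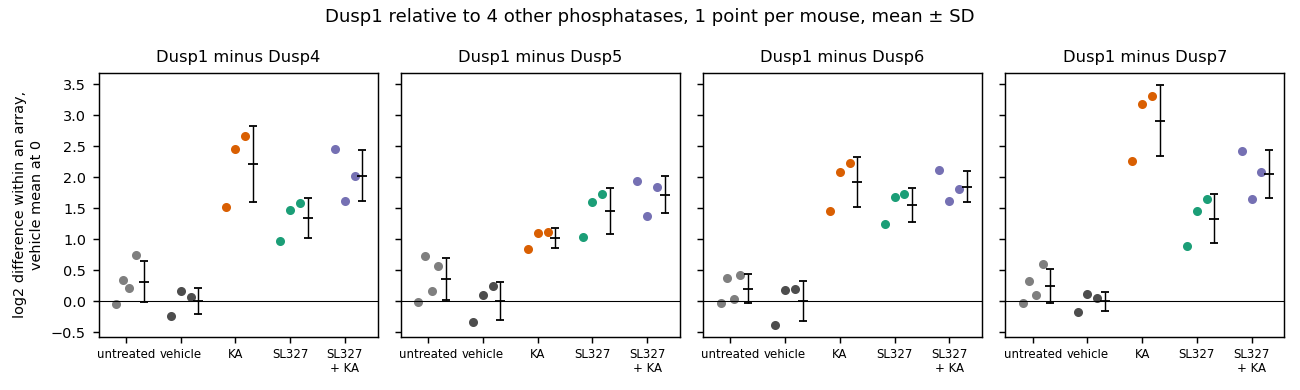
Log2 value of Dusp1 minus that of Dusp4, Dusp5 (6870461), Dusp6 or Dusp7 on the same array, relative to the vehicle mean of that difference, with 1 point per array and the group mean as a line for the 5 groups. Arrays of SL327 with kainic acid lie above those of kainic acid for Dusp5 only, and SL327 arrays lie above all control arrays for all 4 genes.

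The genes most like Dusp1 differed from those most like Dusp5 and Dusp6. Likeness was Pearson's r of log2 values over the 16 arrays, which include the 5 groups, among 8199 probe sets with 1 gene name that passed the intensity filter, and is given as a description. Nearest to Dusp1 were Sik1 (r = 0.959), a kinase induced by cyclic AMP, the clock gene Per1 (0.956), the glucocorticoid-responsive kinase Sgk1 (0.944), Gadd45g (0.940) and Zfp36l2 (0.937). Nearest to Dusp5 were Smad7 (r = 0.988), an inhibitor of TGF-beta signalling, Lonrf1 (0.980), the AP-1 subunit Fosl2 (0.979), Rasl11a (0.975) and Fbxo33 (0.972). Nearest to Dusp6 were Arc (r = 0.967), a synaptic immediate early gene, Lonrf1 (0.966), Smad7 (0.958), Dnajb5 (0.952) and Dusp5 (0.951). Dusp5 and Dusp6 shared Lonrf1 and Smad7, and no gene of the Dusp1 group was in either of the other groups.

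The remaining phosphatases of the pathway that were measured were not called. Of 11 listed phosphatases that act on MAP kinases 9 were measured, and 0 were called in any of the 7 comparisons. Among the 9 were Dusp2, the neuronal tyrosine phosphatase Ptpn5 and the catalytic subunits of PP2A, whereas Dusp10 was listed but not measured. Their differences between kainic acid and vehicle ranged from -0.14 to 0.15 with a median of 0.07. The smallest adjusted p was 0.0547, for Ppp2ca (0.15), a catalytic subunit of PP2A.

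Other feedback inhibitors of ERK were in part called in the same directions as Dusp5 and Dusp6. Of 11 measured genes, 3 rose with kainic acid and 1 fell. Errfi1, an inhibitor of the EGF receptor, rose by 2.13 (adjusted p = 7.81e-07), Spry2, a Sprouty protein that acts upstream of Ras, by 1.45 (adjusted p = 1.48e-07) and Spry4 by 0.54 (adjusted p = 0.0105), while Rasa1, a GTPase activating protein of Ras, fell by 0.32 (adjusted p = 0.0442). With SL327 alone 0 were called. With both treatments only Errfi1 was above vehicle (0.82, adjusted p = 0.0297), as Dusp1 was among the phosphatases. Against kainic acid alone 4 were lower with both treatments, Spry2 by -1.54 (adjusted p = 1.18e-07), Errfi1 by -1.31 (adjusted p = 8.89e-05), Spry4 by -0.85 (adjusted p = 0.000737) and Spred1 by -0.29 (adjusted p = 0.0158). The interaction was called for Errfi1 and Spry2.

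The kinases themselves were mostly not called. Of 8 MAP kinases measured, 0 were called in any of the 7 comparisons with limma, and their differences between kainic acid and vehicle ranged from -0.18 to 0.15. Of 10 listed MAP kinase kinases and Raf kinases 8 were measured, 0 were called with kainic acid or SL327, and Map2k5 (0.26, adjusted p = 0.00854) and Araf (0.22, adjusted p = 0.0492) were higher with both treatments than with kainic acid alone, while the other 6 were not called there and differed by -0.23 to 0.07. Of 14 genes known as outputs of ERK signalling, 10 rose with kainic acid, among them the transcription factors Egr3 (2.10, adjusted p = 1.48e-07), Egr1 (1.03, adjusted p = 2.21e-05) and Egr2 (1.29, adjusted p = 4.01e-05) and the synaptic gene Arc (2.42, adjusted p = 8.61e-05). None was called with SL327 alone or with both treatments against vehicle, 7 were lower with both treatments than with kainic acid alone, and 3 had a called interaction. With both treatments the 14 genes still differed from vehicle by -0.14 to 1.60. Their median there was 0.20, against 0.76 with kainic acid alone. Few probe sets were called in that comparison, 0.383% of all being called higher, so a missing call does not show that no rise was left.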

How the data were processed

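The samples were 16 hippocampi on Affymetrix mouse exon arrays, grouped by their labels as untreated, as vehicle, or by the agent or agents injected. The authors made the deposited log2 values with RMA in the oligo package, which corrects background, normalizes arrays by quantiles and summarises probes into probe sets, and versions are not given in the sources used here. Because RMA makes arrays alike, a shift common to all genes would not be seen. The table appears filtered, since no probe set has a third-highest value under 6.42. The number of arrays limits the precision. Of 20372 probe sets 14704 have 1 gene name, 713 several and 4955 none in the annotation used, and the 15417 named ones were tested.

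Group means of the 5 groups were fitted in R 4.3.3 with limma 3.58.1 (11 residual and 2.89 prior degrees of freedom), with 7 contrasts, two-sided tests, 95% intervals and Benjamini-Hochberg adjustment over all 15417 probe sets at a threshold of 0.05. The script was tested on simulated data. The methods' filter, annotated probe sets above the array median in at least 3 arrays, leaves 8520 probe sets and 10 of the 11 members, and was used as an alternative. Its median was that of the named probe sets in the deposited table. As that table appears filtered already, this filter may be stricter than that of the authors. Other alternatives were all probe sets, centring, quantile normalization, a trended robust fit, fits of fewer groups, a replicate block, unadjusted p-values, untreated or pooled controls, and each array left out. Differences within arrays used the gene's probe set with the highest mean. Gene positions and promoters are those of RefSeq (GRCm38.p6). Proteins were not analysed here.

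The members and the lists (other MAP kinase phosphatases, other feedback inhibitors of ERK, MAP kinases, MAP kinase kinases and Raf, ERK output genes and the cell type markers) were chosen with earlier results of these data known. All members are named. Of each pathway list up to 4 genes are given with values for kainic acid against vehicle, those with the smallest p there, and for likeness the 5 highest correlations. Dusp2, Ptpn5 and the subunits of PP2A are also named as contents of their list, and Dusp10 as not measured. Spred1, Map2k5, Araf and the cell type markers with values were chosen with their values in view, the first 3 because they were called between both treatments and kainic acid alone. Arrays from later time points were not analysed here.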

Additional observations from a re-analysis of the deposited data

Results flagged for a closer look

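The responses of 5 members to kainic acid differed between animals with and without SL327 by a test of the difference itself. The response with the inhibitor minus that without was -2.14 for Dusp1, -1.38 for Dusp5 6870461, -0.75 for Dusp16, -0.66 for Dusp14 and -0.62 for Dusp4. For Dusp1 and Dusp14 all arrays with SL327 alone were above all control arrays, though the difference of Dusp14 from vehicle was not called. For Dusp4, Dusp5 6870461 and Dusp16 they were not above them.

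In untreated animals, Dusp8 was 9.71 in animal 2, away from the other 3 of its group, which were at 9.80 or 9.81. The threshold for such a gap is passed by chance in about 1 of 20 groups, and 11 probe sets were looked at in this group of 4.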

How the results depend on the processing

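The rises of Dusp1, Dusp4, Dusp5 6870461, Dusp6 and Dusp14 with kainic acid were called in all 25 alternatives and that of Dusp16 in all 24 it could enter, and no called value of a probe set changed sign. The count of members called with SL327 alone, 1, became 0 with all probe sets tested, with centring, with quantile normalization, with the replicate block and with untreated controls, 2 at an unadjusted p, and 0 to 1 without single arrays. With both treatments against vehicle it went from 1 to 0 in a fit of these groups alone, 3 at an unadjusted p, and 0 to 1 without single arrays. Against SL327 alone, 0 became 4 at an unadjusted p, and against kainic acid alone 5 became 8. Without single arrays the counts were 6 to 7 for kainic acid against vehicle, 4 to 6 for both treatments against kainic acid and 4 to 5 for the interaction. With the other probe set of Dusp5, Dusp1 minus Dusp5 changed from 1.02 to 2.06 (kainic acid against vehicle) and from 0.70 to -0.22 (both treatments against kainic acid). Without single arrays the latter was 0.59 to 0.87. The causes were not tested.

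Replicate numbers did not pair the samples, since deviations of same-numbered arrays correlated with a mean r of -0.01 over 30 pairs, and 5 of 16 arrays correlated best with their own number. With the replicate block the Dusp1 call with SL327 (adjusted p = 0.0567) and the Dusp14 interaction (adjusted p = 0.0655) were lost. The 3 animals per group limit the precision of every value.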
